A study of Mus musculus with 11 samples.

Results

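The comparison described here is that of MFN2-R94Q:MFN1 with MFN2-R94Q mouse spinal cord, which asks what differed when MFN1 was added on the background of the mutant mitofusin. It takes 8 of the 11 libraries of the study, 5 labelled MFN2-R94Q:MFN1 and 3 labelled MFN2-R94Q, and every gene with at least 0.5 RPKM (reads per gene, scaled to its length and to the depth of the library) in at least 3 of the 11 libraries. That rule kept 14347 of 20888 genes, or 68.7%. Of the genes kept, 75 reached 0.5 RPKM in exactly 3 libraries, with a median level of 0.440 RPKM, and 117 genes that reached it in 1 library fewer, with a median of 0.403 RPKM, were left out.

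All mice were C57BL/6 and 10 months old, and RNA came from the lumbar spinal cord, a tissue of neurons, glia and vessels. MFN2-R94Q mice carry a mitofusin 2 with arginine 94 replaced by glutamine, the kind of change that causes Charcot-Marie-Tooth disease type 2A, a neuropathy of long axons. MFN2-R94Q:MFN1 mice carry the same mutant and mitofusin 1, so that both groups compared hold the mutant. The remaining 3 libraries came from nontransgenic mice (nTg), which have neither transgene and give the level without them. No group carries MFN1 alone, so an action of MFN1 that does not depend on the mutant cannot be told apart from one that does. Neither the promoters and species of the transgenes nor the sex and batch of the mice were given in the sources used here. Each library was taken as 1 animal. P-values set the difference between groups against the spread of libraries within groups, which was pooled over all 11 libraries, nTg included.

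Mitofusins are GTPases of the mitochondrial outer membrane that tether and fuse mitochondria, and either of the pair can act without the other in many cells. Microglia, the resident macrophages of the cord, sense lipids and debris through receptors that signal through the adaptor TYROBP, and they take on a state with high lysosomal and lipid genes around damaged myelin or neurons. Oligodendrocytes make the myelin sheath and spend much of their synthesis on cholesterol and galactolipids.

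One library stood apart. On the first principal component, which held 39.6% of the variance, MFN2-R94Q replicate 2 lay at 27.0, the other MFN2-R94Q libraries at 6.20 and 8.05, and the other 8 libraries between -8.23 and -2.48. Values are given with and without it for the leading genes and the genes it moves most, and for most lists whose count it changes. Counts over a list are from the fit of all libraries. Unless a sentence says otherwise, a gene named on its own as having risen or fallen also passed the test in each of 11 runs that left out 1 library in turn. The runs that left out an nTg library could change the pooled spread but not the fold change. Each library held 30.7 to 72.0 M reads, as recovered from low values of short RNA genes, and the ranges of the groups overlapped. Motor neuron markers of the cord summed to 316 to 341 RPKM in every library, and no skeletal muscle or adipocyte marker reached the filter. Fold changes are from limma on log2(RPKM + 0.5) and understate the change of genes at low levels.

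Mfn1 (chr3:32529443-32579225, GRCm38) was at 26.5, 26.6 and 25.8 RPKM in MFN2-R94Q and at 25.2, 25.1, 24.6, 24.2 and 25.6 RPKM in MFN2-R94Q:MFN1. All 5 libraries with MFN1 were a little below the 3 without, and the fitted ratio of 0.950 did not pass (log2 fold change -0.07, SE 0.031, limma adjusted p = 0.13). Mfn2 (chr4:147873586-147904909) was at 44.9, 47.7 and 46.4 RPKM against 45.6, 46.4, 43.3, 43.9 and 47.0 RPKM, and the groups overlapped (0.977-fold, adjusted p = 0.56). Since the species of the transgenes is not given, the level of these mouse genes does not check the labels.

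With MFN1, 1848 of 14347 genes differed at a limma adjusted p of 0.05 (12.9% of genes tested), 1370 higher (9.55%) and 478 lower (3.33%). The differences were small, with a median size of 0.26 on the log2 scale among the genes called. A 1.5-fold change or more was seen in 87 higher and 26 lower genes, and a 2-fold change or more in 3 and 8. In 1873 genes (13.1%) all 5 MFN2-R94Q:MFN1 libraries were above all 3 MFN2-R94Q libraries, and in 1011 genes (7.05%) all 5 were below. The lean toward higher genes rested in part on scaling: 74.1% of called genes were higher as deposited, 61.1% after median centring (1094 higher, 696 lower) and 54.7% after quantile normalization (1004 higher, 833 lower). Without MFN2-R94Q replicate 2 the calls were 880, of which 725 were higher and 155 lower. Without MFN2-R94Q:MFN1 replicates 2 and 5 in turn they were 1098 and 1149. Leaving out MFN2-R94Q replicate 1 gave 746 lower genes, and leaving out MFN2-R94Q:MFN1 replicate 4 gave 283.

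In every one of the 11 runs, 605 genes were higher and 111 lower. Of these, 71 rose and 10 fell by 1.5-fold or more. The 71 rises included 18 of the 178 tested genes on the microglia, complement and lysosome lists, 9 of 68 on the interferon and MHC lists, and 5 of 84 on the myelin, oligodendrocyte precursor, sphingolipid and cholesterol lists. A further 34 were on none of the 65 lists, which together hold 1155 of the genes tested. Some genes, such as Itgax, are on several lists, so the counts of those lists are not separate. Below, each list's count in the fit of all libraries can be read against 9.55% higher and 3.33% lower over all genes. Their median log2 fold change was 0.01. Counts from other fits have other totals over the 14347 genes. These were 725 higher and 155 lower without MFN2-R94Q replicate 2 and 1471 and 746 without MFN2-R94Q replicate 1. After quantile normalization they were 1004 and 833.

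**Figure D1:**
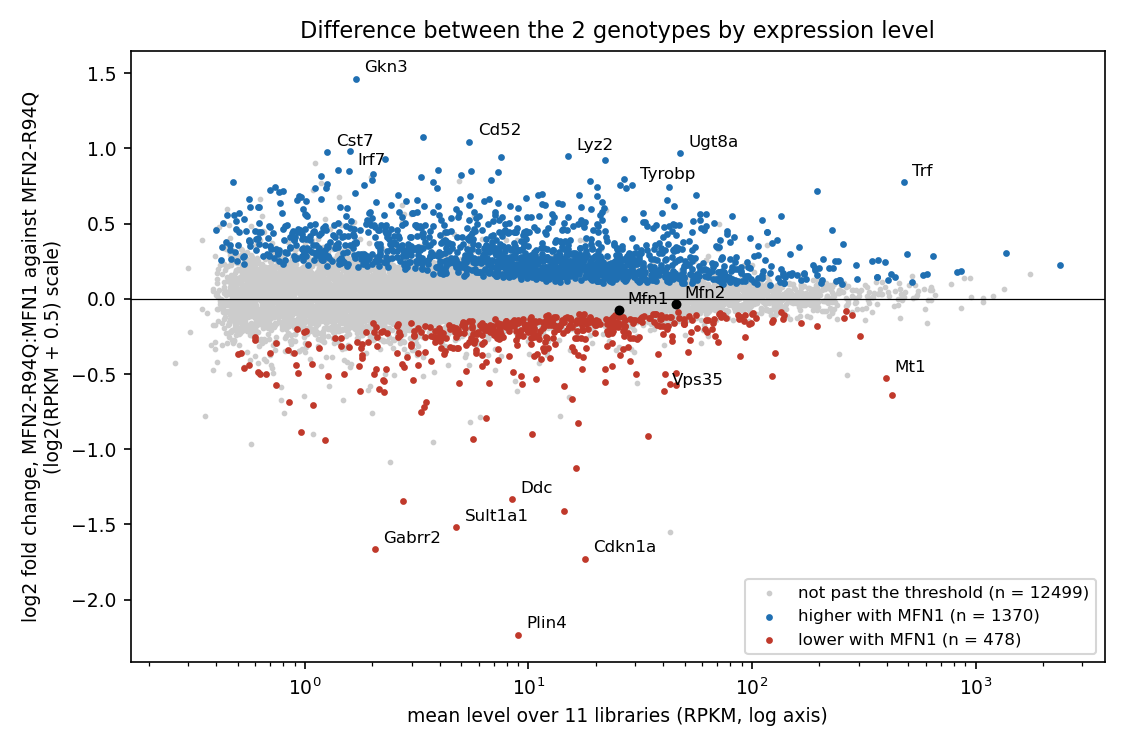
Log2 fold change of MFN2-R94Q:MFN1 over MFN2-R94Q (vertical axis) against mean RPKM over all 11 libraries (log horizontal axis) for 14347 genes, with 1370 genes past the threshold upward in blue, 478 downward in red and the rest in grey. The rises that are labelled are mostly microglial and myelin genes at or under 2.76-fold, and the labelled falls, led by Plin4, reach further from 0.

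Microglial genes rose together. Of 25 markers of homeostatic microglia, all of which were measured, 19 rose and none fell, with a median log2 fold change of 0.42 (14 of 25 and 0.32 without MFN2-R94Q replicate 2). Of 21 genes of TREM2-TYROBP signalling through ITAM motifs, the tyrosine motifs that recruit the kinase SYK, 12 rose and none fell (median 0.25, and 9 of 21 without replicate 2). The summed level of the 25 microglial markers was 153 to 183 RPKM in MFN2-R94Q, 223 to 237 RPKM in MFN2-R94Q:MFN1 and 173 to 190 RPKM in nTg, so the group with MFN1 lay above both others. In bulk tissue, a change in the number of cells of a type and a change in RNA per cell cannot be told apart.

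Tyrobp (chr7:30413782-30417582), the adaptor that carries the ITAM, was at 21.1, 21.4 and 23.5 RPKM in MFN2-R94Q and at 37.3, 37.8, 36.5, 38.8 and 37.0 RPKM with MFN1. The groups were far apart and each was tight. Its rise was 1.69-fold (log2 0.76, SE 0.041, limma adjusted p = 1.81e-06) and 1.67-fold without replicate 2, and nTg, at 22 ± 0.97 RPKM (SD, n = 3), was level with MFN2-R94Q. Trem2, the lipid receptor that signals through TYROBP, was at 10.4, 10.1 and 12.5 RPKM against 15.9, 16.7, 16.7, 15.1 and 15.0 RPKM, 1.43-fold higher with MFN1 (adjusted p = 0.000831). Fcer1g, a second ITAM adaptor, rose 1.61-fold, and Clec7a, a receptor for fungal glucans that marks activated microglia, rose 1.81-fold, from 0.534 to 1.26 RPKM in MFN2-R94Q to 1.94 to 2.33 RPKM; without replicate 2 these were 1.48-fold and 1.52-fold. Itgb2, the integrin chain of the complement receptor, rose 1.58-fold, Ptpn6, the phosphatase that opposes ITAM kinases, rose 1.56-fold, and Lat2, a linker downstream of SYK, rose 1.38-fold. Spi1, which encodes PU.1, the transcription factor that specifies macrophages, was at 1.39, 1.51 and 1.4 RPKM against 2.33, 2.18, 1.98, 2.08 and 2.58 RPKM (1.41-fold, adjusted p = 0.00286). Of the kinases themselves, Lyn rose 1.19-fold, while Syk, at 1.15-fold (adjusted p = 0.121), did not pass.

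Among the homeostatic markers, Cx3cr1, the receptor for neuronal fractalkine, was at 8.54 to 11.2 RPKM against 12.8 to 15.0 RPKM, a 1.36-fold rise. P2ry12, the purine receptor that guides microglial processes, was at 9.01, 6.57 and 8.08 RPKM against 10.8, 10.9, 11, 10.9 and 10.3 RPKM (1.35-fold, and 1.25-fold without replicate 2), and nTg was at 9.76 ± 1.1 RPKM (SD, n = 3). Csf1r, the receptor on which microglia depend for survival, rose 1.26-fold, Fcrls 1.81-fold (1.46-fold without replicate 2, which was at 1.5 RPKM beside 3.10 and 3.54 RPKM), Aif1, the gene of the marker IBA1, 1.44-fold (1.33-fold without it), Itgam, the CD11b integrin chain, 1.48-fold (1.33-fold), and Selplg 1.42-fold. Tmem119 was 1.19-fold higher and did not pass without MFN2-R94Q replicate 1, and Ltc4s, a leukotriene synthase, did not pass at 0.937-fold.

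Leukocyte cytoskeleton and integrin genes rose in 13 of 20 cases with no fall (median 0.26, and 12 of 20 without replicate 2). Genes of Fc receptors, which bind antibody, rose in 4 of 5 cases: Fcer1g, Fcgr1 (1.4-fold), Fcgr2b (1.41-fold) and Fcgrt (1.22-fold, not past the threshold without replicate 2), while Fcgr3 was at 1.14-fold (adjusted p = 0.15).

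Complement genes rose in 9 of 16 cases and none fell (median 0.25, 8 of 16 without replicate 2, and 6 of 16 after quantile normalization). C1qa, a chain of the C1q that starts the classical pathway, was at 34.2, 36.4 and 37.9 RPKM in MFN2-R94Q and 54.3, 53.1, 55.9, 65.7 and 50.1 RPKM with MFN1. The groups did not overlap, and the rise was 1.53-fold (SE of log2 0.070, limma adjusted p = 0.000569). C1qb and C1qc rose 1.37-fold and 1.34-fold. C3, the component on which the pathways converge, was at 13.2, 15.1 and 15.4 RPKM against 21.4, 19.3, 21.0, 28.3 and 23.1 RPKM (1.52-fold, adjusted p = 0.00418). C4b was at 35.0, 43.7 and 43.1 RPKM against 60.2, 48.3, 52.7, 60.0 and 53.5 RPKM (1.35-fold), with nTg at 20.7 RPKM. Cfb, of the alternative pathway, did not pass at 0.845-fold (adjusted p = 0.101).

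Genes of the disease associated state of microglia rose in 21 of 29 cases (median 0.34). Without MFN2-R94Q replicate 2 this was 17 of 29, and after quantile normalization 16 of 29. The 1 member that fell in the fit of all libraries did not pass in any run that left out a library. Cst7, an inhibitor of lysosomal cathepsins, was at 0.761, 0.750 and 0.889 RPKM in MFN2-R94Q and 2.53, 1.80, 1.89, 2.33 and 1.82 RPKM with MFN1, with no overlap (1.97-fold, SE of log2 0.11, limma adjusted p = 0.000661). Lyz2, the lysozyme of macrophages, was at 12.3, 9.51 and 12.1 RPKM against 24.4, 21.9, 23.2, 20.8 and 20.6 RPKM (1.93-fold, adjusted p = 8.61e-05; 1.78-fold without replicate 2). Both genes were lowest in nTg, at 0.369 ± 0.12 RPKM for Cst7 and 7.05 ± 0.60 RPKM for Lyz2 (SD, n = 3). Lgals3, galectin-3, followed the same order, with 1.64 RPKM in nTg, 4.27 to 5.6 RPKM in MFN2-R94Q and 7.08 to 8.66 RPKM with MFN1 (1.54-fold).

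Itgax, the CD11c integrin chain, went from 0.376 to 0.605 RPKM in MFN2-R94Q to 1.01 to 1.24 RPKM with MFN1 (1.65-fold). Gpnmb, a lysosomal glycoprotein, rose 1.58-fold, Cd68, a lysosomal membrane protein of phagocytes, 1.47-fold, Cd9 1.41-fold, Lpl, lipoprotein lipase, 1.4-fold, and the chemokine gene Ccl3 1.6-fold. Cd52, a surface glycoprotein of leukocytes, was at 4.08, 2.80 and 3.71 RPKM against 8.44, 7.06, 7.58, 9.18 and 6.68 RPKM (2.06-fold; 1.87-fold without replicate 2). Other members gave smaller values: Apoe, also an astrocyte gene, was at 1.13-fold and passed in 1 of the 11 runs, and Axl was at 1.07-fold (adjusted p = 0.0544).

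In the wider lysosome list 17 of 48 members rose and 1 fell in the fit of all libraries, with a median of 0.10, and 14 to 18 were higher over the runs that left out 1. The number that fell was 3 without MFN2-R94Q replicate 1, 1 without MFN2-R94Q replicate 2 or 3 or MFN2-R94Q:MFN1 replicate 3, and 0 in the other runs. The lysosomal rises included Ctsh, a cathepsin (1.43-fold, limma adjusted p = 4.99e-05), Hexa (1.44-fold), Laptm5, a lysosomal protein of leukocytes (1.41-fold), and Unc93b1, which carries nucleic acid sensing Toll-like receptors to endosomes (1.38-fold). Cathepsins made in many cell types gave other values: Ctsd rose 1.19-fold, and Ctsb was at 1.03-fold (adjusted p = 0.296). Cyba and Rac2, parts of the phagocyte NADPH oxidase, were 1.44-fold and 1.24-fold higher, though Rac2 did not pass without MFN2-R94Q replicate 1.

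**Figure D2:**
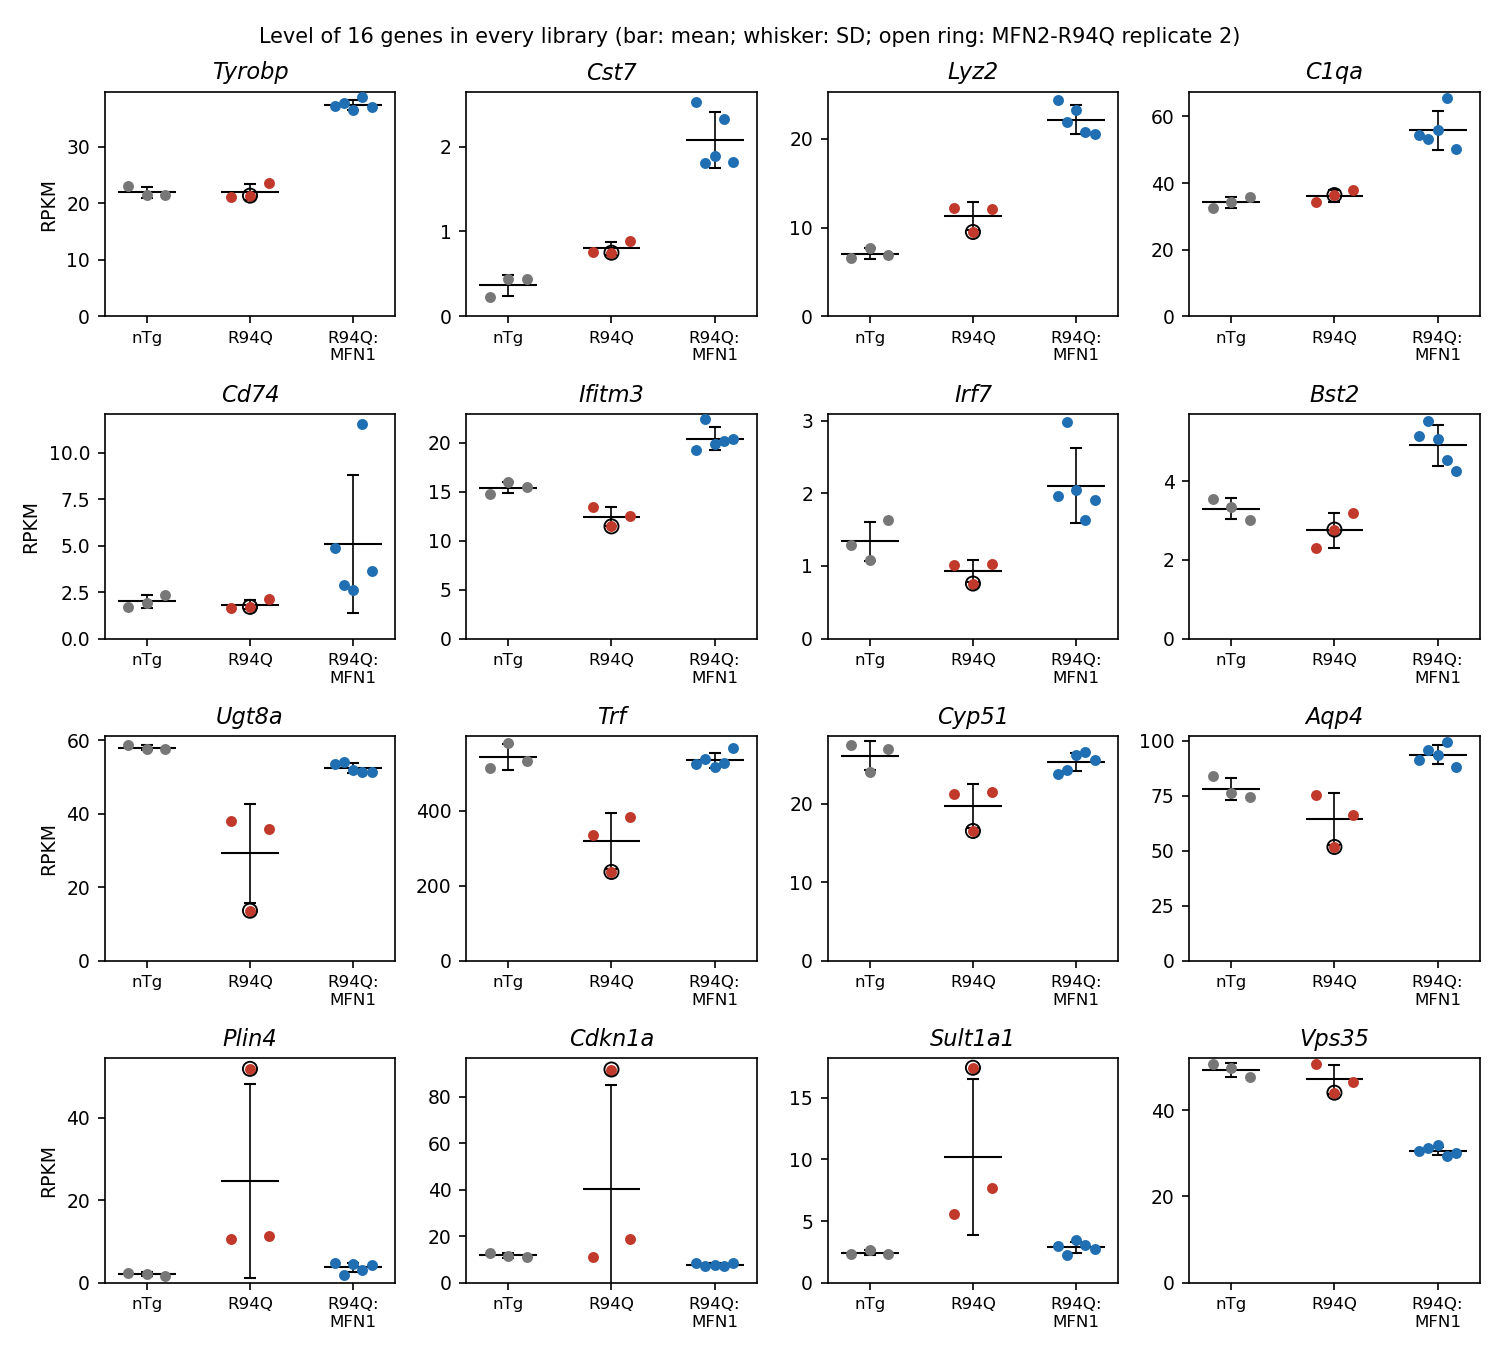
RPKM (vertical axes, each with its own linear range) of 16 genes in each library of nTg, MFN2-R94Q and MFN2-R94Q:MFN1, with bars at the mean and whiskers of 1 SD; the open ring is MFN2-R94Q replicate 2. Tyrobp, Cst7, Lyz2 and C1qa lie higher in all 5 MFN2-R94Q:MFN1 libraries than in the 3 MFN2-R94Q libraries, while Plin4, Cdkn1a and Sult1a1 are lower and their MFN2-R94Q means are set largely by the ringed library.

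Interferon response genes rose in 24 of 41 cases and none fell (median 0.32). Without MFN2-R94Q replicate 2 the count was 16 of 41 at a median of 0.30. Interferon stimulated genes are switched on by STAT and IRF factors at promoter elements. Where RefSeq (GRCm38.p6) gave a promoter window, the 250 bases before each gene's start were searched on both strands for GAAANNGAA, the core of the interferon stimulated response element. It was present in 11 of 18 called members with a window and in 6 of 14 tested members that were not called. Over all 10887 tested genes with a window the share was 7.23%, and over all 32851 windows it was 7.13%. The stretches below are shown because they hold that match at the genes with the clearest values. Each is written along the gene's own strand, with the match in capitals, and neighbouring matches overlap in some windows. At Gbp2 and Ifit3 the capitals are the reverse complement of GAAANNGAA, so the match is on the other strand.
Isg15, chr4:156200857-156200915, minus strand: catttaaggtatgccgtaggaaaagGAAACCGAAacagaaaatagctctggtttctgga
Bst2, chr8:71537563-71537621, minus strand: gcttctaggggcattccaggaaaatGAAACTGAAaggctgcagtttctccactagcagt
Gbp2, chr3:142620580-142620638, plus strand: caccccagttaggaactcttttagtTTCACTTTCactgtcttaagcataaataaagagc
Ifit3, chr19:34583383-34583441, plus strand: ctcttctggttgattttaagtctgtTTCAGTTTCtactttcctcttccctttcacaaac

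Isg15, a ubiquitin-like modifier, was at 1.21, 0.852 and 1.51 RPKM in MFN2-R94Q and 2.14, 2.94, 2.87, 2.42 and 2.10 RPKM with MFN1 (1.78-fold, limma adjusted p = 0.00552; 1.6-fold without replicate 2). Bst2, the tetherin that holds budding virus at the membrane, was at 2.30, 2.77 and 3.18 RPKM against 5.15, 5.55, 5.08, 4.53 and 4.25 RPKM (1.67-fold). In both genes every library with MFN1 was above every library without. Gbp2, a guanylate binding protein, was at 1.29, 1.09 and 1.5 RPKM against 2.59, 2.62, 2.49, 3.42 and 1.98 RPKM (1.73-fold, adjusted p = 0.00224). Ifit3, which binds foreign RNA complexes, was at 4.61, 4.28 and 4.87 RPKM against 8.77, 8.32, 9.48, 9.20 and 6.10 RPKM (1.73-fold). Ifit3b rose 1.71-fold (1.55-fold without replicate 2) and holds the same promoter run as Ifit3, at chr19:34607779-34607837. The transcripts of these genes were not compared, so how reads were divided between them is not known.

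Ifitm3, a membrane protein that blocks viral entry, was at 13.4, 11.4 and 12.5 RPKM in MFN2-R94Q and 19.2, 22.4, 19.8, 20.1 and 20.4 RPKM with MFN1 (1.62-fold, SE of log2 0.055, limma adjusted p = 4.99e-05). Its nTg level of 15.4 ± 0.58 RPKM (SD, n = 3) lay between the groups. Irf7, the factor that amplifies interferon genes, was at 1.02, 0.757 and 1.03 RPKM against 1.96, 2.98, 2.05, 1.63 and 1.91 RPKM (1.80-fold, adjusted p = 0.00358). Of the factors upstream, Irf9 was 1.19-fold higher but passed only in the runs without nTg replicate 2, nTg replicate 3 or MFN2-R94Q replicate 1. Isg20 did not pass, at 0.917-fold.

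Elements known from microglial and sterol genes were searched in the same way. GAGGAAGT, a PU.1 type element, was in 2.44% of windows and in 2.645% of the 10887 tested genes with a window. It was in 0 of 12 called microglial markers with a window, 0 of 8 called ITAM genes and 1 of 6 called complement genes, C1qc. Among tested members that were not called it was in 0 of 5, 3 of 8 and 0 of 4. TCACCCCA, a sterol element core, was in 1.34% of windows and in 1.59% of the tested genes with a window. It was in 1 of 11 called cholesterol synthesis genes, Hmgcs1, and in 0 of 4 that were not called. No match says only that these letters are not in these windows.

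Genes of MHC class II, which presents peptides to helper T cells, were higher in all 5 libraries with MFN1 than in the 3 without for 7 of 7 members, with a median of 0.73. Of these, 4 passed in the fit of all libraries, and none passed in limma without MFN2-R94Q replicate 2 (median 0.66, 5 of 7 at an unadjusted p under 0.05) or without nTg replicate 1, MFN2-R94Q replicate 1 or MFN2-R94Q:MFN1 replicate 1. Without nTg replicate 2 or 3, MFN2-R94Q replicate 3 or MFN2-R94Q:MFN1 replicate 5, 1 passed in each run, and 2 passed without MFN2-R94Q:MFN1 replicate 3. Cd74, the invariant chain, was at 1.66, 1.70 and 2.11 RPKM in MFN2-R94Q and 4.84, 2.87, 2.60, 11.6 and 3.64 RPKM with MFN1, where replicate 4 was far above the rest. H2-Aa was at 0.671, 0.803 and 0.981 RPKM against 2.31, 1.30, 1.72, 5.14 and 1.37 RPKM, high in the same library. In both genes the groups did not overlap, and each passed in 3 of the 11 runs, always with MFN2-R94Q replicate 2 and MFN2-R94Q:MFN1 replicate 1 in the fit.

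MHC class I genes rose in 7 of 20 cases (4 without MFN2-R94Q replicate 1, 4 without replicate 2, and 3 without MFN2-R94Q:MFN1 replicate 1 or 2). B2m, the light chain shared by class I molecules, was at 93.1, 82.1 and 103 RPKM against 135, 137, 137, 143 and 114 RPKM (1.44-fold, limma adjusted p = 0.00187). Psmb8, the immunoproteasome subunit, rose 1.29-fold and H2-T23 1.27-fold, while H2-K1 (1.21-fold) and H2-D1 (1.17-fold) passed in 7 and 6 of the 11 runs. Class I genes are near-identical in parts, so their division of reads is uncertain.

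Of the other blood cells that could carry such genes, no T cell, B cell, or neutrophil and monocyte marker reached the expression filter. The sums take 11 of 13 T cell and 6 of 8 B cell markers; the T cell receptor and immunoglobulin chain genes listed were not analysed here. The summed T cell markers were at 0.461 to 0.784 RPKM in nTg, 0.802 to 1.06 in MFN2-R94Q and 0.847 to 1.19 with MFN1, and B cell markers were at 0.493 to 0.694, 0.346 to 0.496 and 0.576 to 0.753 RPKM. Neutrophil and monocyte markers summed to 0.754 to 3.10 RPKM in MFN2-R94Q and 0.417 to 1.05 RPKM with MFN1, and Elane was at 0 in all 11 libraries. Perivascular macrophage markers summed to 1.95 to 2.49 RPKM and 2.10 to 2.32 RPKM. The part of these cells in the rises was not tested.

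**Figure D3:**
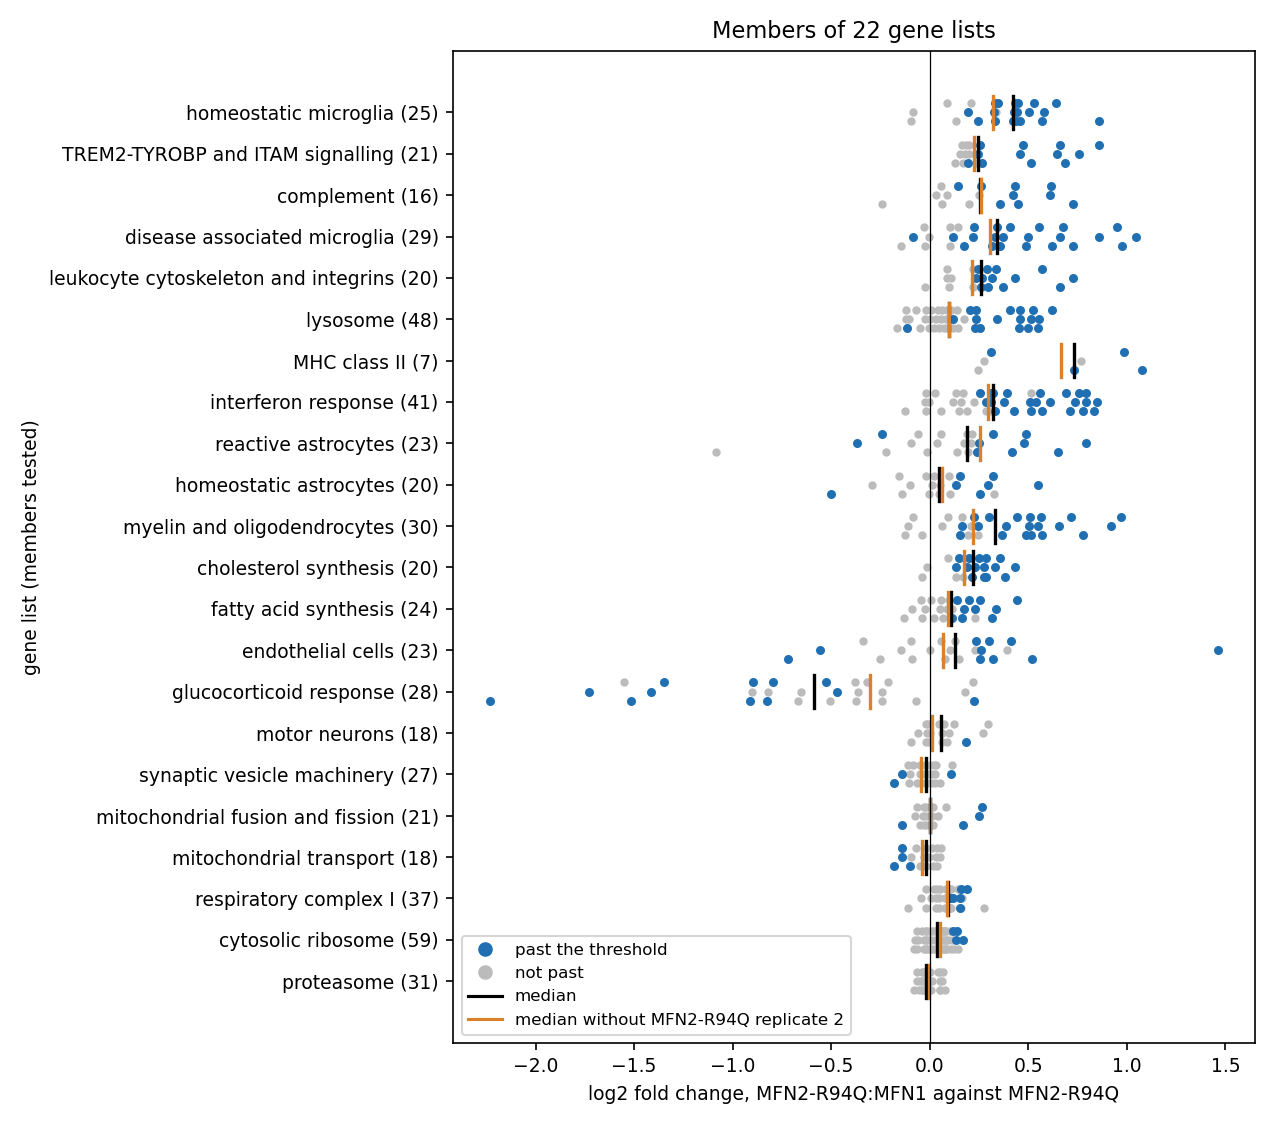
Log2 fold change of MFN2-R94Q:MFN1 over MFN2-R94Q for each tested member of 22 gene lists (horizontal axis; blue past the threshold, grey not), with the list median in black and the median without MFN2-R94Q replicate 2 in orange. Microglial, interferon and myelin lists lie mostly right of 0, the glucocorticoid list lies left at -0.59 and moves to -0.30 without that library, and proteasome genes lie around 0.

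Astrocyte genes gave a mixed picture. Of 23 reactive astrocyte genes 8 rose and 2 fell (median 0.19; 9 rose and 0 fell without MFN2-R94Q replicate 2). In the fit of all libraries 16 of the 23 had a log2 fold change above 0. The values ran from -1.08 for Lcn2 to 0.79 for Gbp2. The number of falls was 0 or 1 in the runs that left out any library but MFN2-R94Q replicate 1. Gfap, the intermediate filament of astrocytes, was at 364, 422 and 390 RPKM in MFN2-R94Q and 471, 443, 447, 497 and 467 RPKM with MFN1 (1.19-fold, limma adjusted p = 0.0117), with nTg at 274 ± 16 RPKM (SD, n = 3). Vim, vimentin, was at 38.6, 53.4 and 41.2 RPKM against 67.8, 58.6, 55.3, 66.1 and 62.2 RPKM (1.4-fold; 1.54-fold without replicate 2). Both were lowest in nTg and highest with MFN1. Cd44, a hyaluronan receptor, rose 1.33-fold, and Serpina3n did not pass at 1.15-fold (adjusted p = 0.13) but did without replicate 2, at 1.26-fold (adjusted p = 0.00549).

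Of 20 homeostatic astrocyte genes 6 rose and 1 fell (5 or 6 rose over the runs that left out 1 library, and 4 fell without MFN2-R94Q replicate 1), with a median of 0.05 that was 0.00 after quantile normalization. Aqp4, the water channel of astrocyte endfeet, was at 75.3, 51.7 and 66.3 RPKM against 91.4, 95.7, 93.3, 99.6 and 88.1 RPKM (1.47-fold, adjusted p = 0.00348 by limma; 1.32-fold without replicate 2). Kcnj10, its potassium channel partner, rose 1.23-fold. The member that fell was Gjb6, a gap junction gene, at 44.6, 60.6 and 47.1 RPKM against 38.1, 34.1, 35.7, 31.9 and 37.5 RPKM (0.706-fold; 0.774-fold without replicate 2). Thus genes of one cell type went both ways.

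Myelin and oligodendrocyte genes rose in 20 of 30 cases and none fell (median 0.33). Without MFN2-R94Q replicate 2 the count was 17 of 30 and the median 0.22, and after quantile normalization 15 of 30 rose. Beside nTg, the list's median was -0.31 in MFN2-R94Q and 0.02 with MFN1, 2 comparisons that share the nTg libraries with each other and the other groups with this one. Trf, the transferrin that oligodendrocytes make, was at 334, 237 and 384 RPKM in MFN2-R94Q and 526, 539, 516, 528 and 568 RPKM with MFN1, beside 543 ± 35 RPKM in nTg (SD, n = 3). All 5 libraries with MFN1 were above all 3 without (1.71-fold, limma adjusted p = 0.00178; 1.49-fold without replicate 2). Ugt8a (chr3:125865272-125938682), which makes the myelin lipid galactosylceramide, was at 38.1, 13.6 and 35.9 RPKM against 53.4, 54.0, 51.8, 51.4 and 51.4 RPKM. Its MFN2-R94Q value in replicate 2 was far below the other 2, and its rise was 1.96-fold with that library (SE of log2 0.24) and 1.41-fold without (SE of log2 0.033, adjusted p = 9.14e-06).

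Fa2h, which hydroxylates the same lipids, rose 1.4-fold (1.25-fold without replicate 2), and Gal3st1, which sulfates them, rose 1.31-fold. Mag, an adhesion protein of the inner myelin loop, was at 209, 196 and 229 RPKM against 259, 288, 269, 265 and 279 RPKM (1.29-fold). Sox10, the transcription factor of the lineage, was at 36.8, 22.2 and 32.0 RPKM against 41.9, 48.0, 42.6, 51.9 and 51.9 RPKM (1.58-fold; 1.37-fold without replicate 2). The most abundant sheath proteins moved less. Cnp rose 1.17-fold, whereas Mbp was at 1.12-fold (adjusted p = 0.0852), Mobp at 0.925-fold, Mal at 0.916-fold and Cldn11 at 0.973-fold without passing. Klk6, a protease of oligodendrocytes, rose 1.62-fold (limma adjusted p = 7.67e-05). Oligodendrocyte precursor genes rose in 4 of 16 cases, and in 2 without MFN2-R94Q replicate 2 or MFN2-R94Q:MFN1 replicate 2, 4 or 5.

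Cholesterol synthesis genes rose in 15 of 20 cases and none fell (median 0.22; 9 of 20 and 0.17 without MFN2-R94Q replicate 2). Beside nTg the list's median was -0.28 in MFN2-R94Q and -0.01 with MFN1. Cyp51, lanosterol demethylase, was at 21.2, 16.5 and 21.5 RPKM in MFN2-R94Q and 23.9, 24.3, 26.2, 26.6 and 25.6 RPKM with MFN1 (1.28-fold, limma adjusted p = 0.0117; 1.18-fold without replicate 2), and nTg was at 26.2 ± 1.9 RPKM (SD, n = 3). The MFN2-R94Q libraries were thus all below the range of the others in this gene. Mvd and Pmvk, of the mevalonate steps, rose 1.35-fold and 1.16-fold, Fdft1, squalene synthase, 1.17-fold, Nsdhl 1.19-fold and Dhcr7, the last reductase, 1.31-fold. Fatty acid synthesis genes rose in 10 of 24 cases (6 without replicate 2), among them Elovl5, an elongase (1.26-fold; 1.17-fold without replicate 2), and Fads2, a desaturase (1.17-fold).

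**Figure D4:**
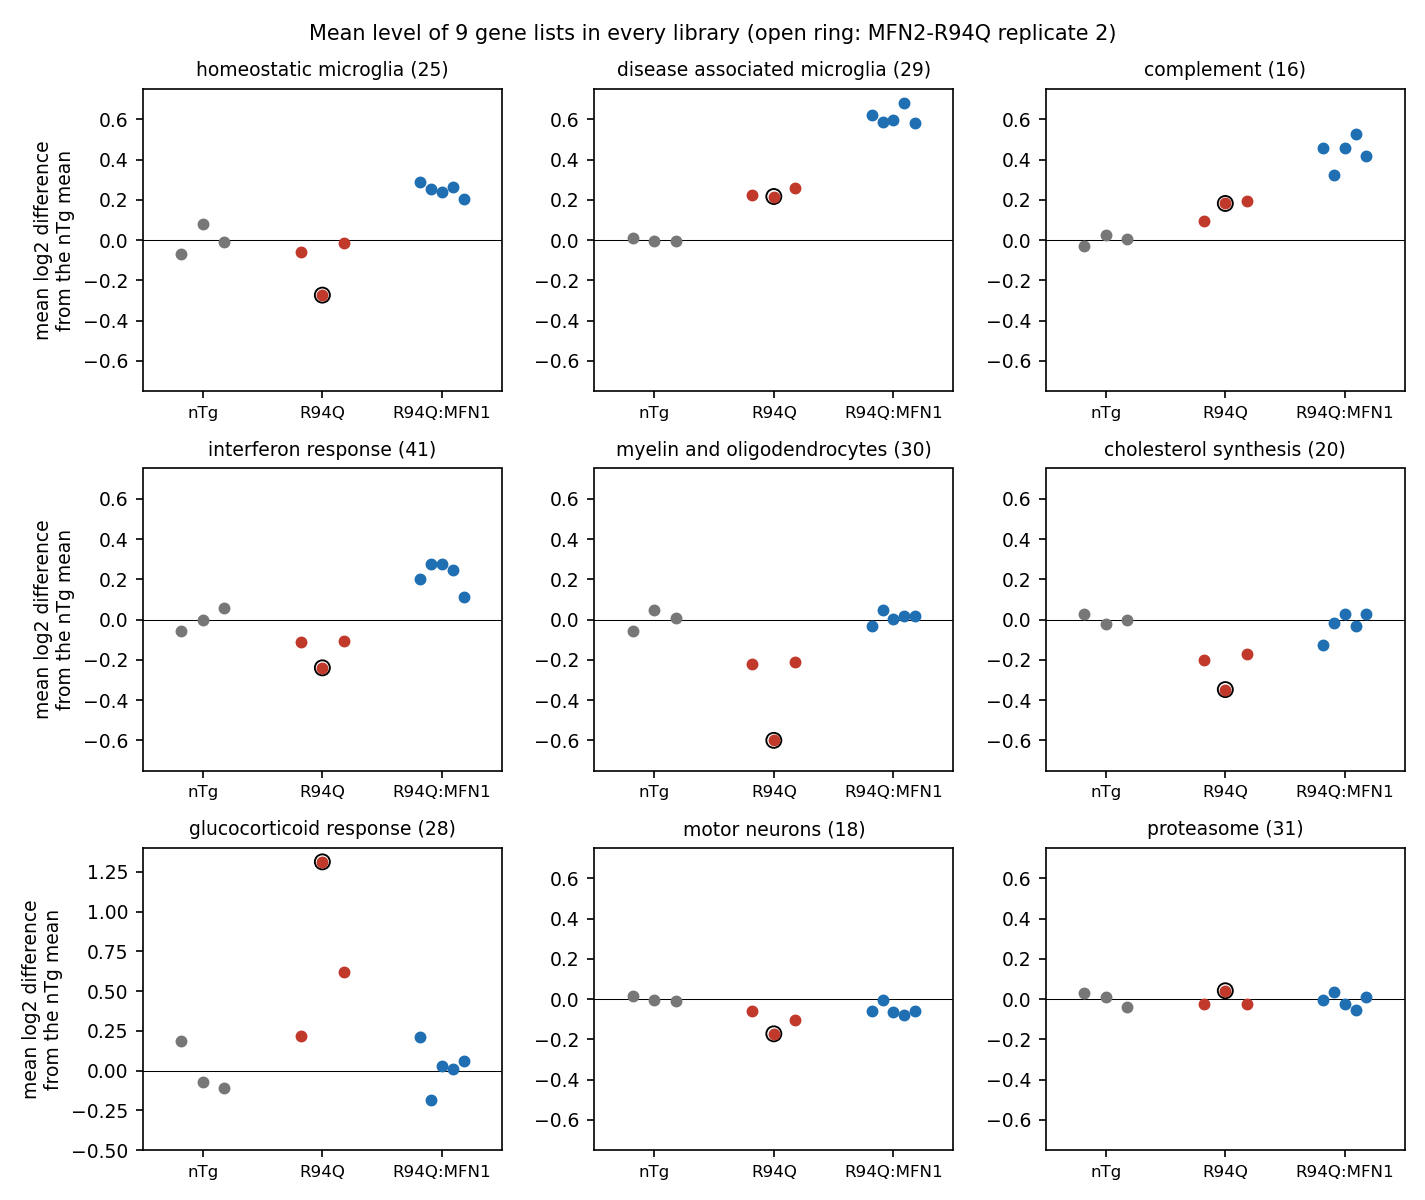
Mean log2 difference from the nTg mean over the tested members of 9 lists (vertical axis), 1 point per library in the 3 groups, with MFN2-R94Q replicate 2 ringed. Homeostatic microglia lie between 0.20 and 0.29 in MFN2-R94Q:MFN1 and between -0.27 and -0.01 in MFN2-R94Q, myelin lies between -0.03 and 0.05 against -0.60 and -0.21, and proteasome genes overlap in all groups.

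The largest falls among the named genes were in genes that were highest in MFN2-R94Q replicate 2. Plin4 (chr17:56100587-56109948), a coat protein of lipid droplets, was at 10.7, 51.9 and 11.4 RPKM in MFN2-R94Q and 4.73, 1.99, 4.49, 3.09 and 4.29 RPKM with MFN1, beside 2.09 ± 0.44 RPKM in nTg (SD, n = 3). Replicate 2 was several times the other MFN2-R94Q libraries, and all 3 were above every library with MFN1 (0.213-fold, limma adjusted p = 0.0065; 0.352-fold without replicate 2, adjusted p = 0.00293). Sult1a1, a phenol sulfotransferase, was at 5.55, 17.4 and 7.68 RPKM against 2.95, 2.22, 3.44, 3.05 and 2.74 RPKM (0.349-fold; 0.477-fold without replicate 2). Gabrr2, a GABA receptor subunit, was at 2.67, 9.68 and 2.73 RPKM against 0.869 to 1.22 RPKM (0.316-fold; 0.465-fold without replicate 2). The same shape was seen for Ddc, aromatic amino acid decarboxylase, at 9.99, 31.1 and 10.2 RPKM against 4.86 to 6.33 RPKM (0.397-fold; 0.572-fold), and for Hif3a, an inhibitory hypoxia factor, at 2.89, 10.4 and 4.03 RPKM against 1.28 to 2.23 RPKM (0.393-fold; 0.554-fold).

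Glucocorticoid response genes, which the activated hormone receptor induces, fell in 11 of 28 cases, and 1 rose (median -0.59). Plin4, Sult1a1 and Hif3a, given above, are members of this list and are in its count. Without MFN2-R94Q replicate 2, 5 fell and the median was -0.30. The count depended on several libraries: 22 fell without MFN2-R94Q replicate 1, and 4, 6, 5 and 6 without MFN2-R94Q:MFN1 replicates 2, 3, 4 and 5. Fkbp5, a co-chaperone of the receptor, was at 10.3, 29.3 and 11.8 RPKM against 9.22, 7.60, 7.68, 7.35 and 8.14 RPKM (0.536-fold, not past the threshold without MFN2-R94Q:MFN1 replicate 2, 3, 4 or 5; 0.737-fold without MFN2-R94Q replicate 2). Sgk1, a kinase induced by the hormone, was at 36.0, 109 and 90.7 RPKM against 51.2, 9.88, 20.3, 23.9 and 31.2 RPKM, with overlapping groups, and did not pass (0.342-fold, adjusted p = 0.0544). Other known targets gave smaller values: Tsc22d3 was at 0.865-fold (adjusted p = 0.137) and Per1 at 0.772-fold (adjusted p = 0.149). The member that was higher was Gpd1, at 1.17-fold, which did not pass without MFN2-R94Q replicate 1 or MFN2-R94Q:MFN1 replicate 5.

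Of 17 targets of p53, the stress factor that halts the cell cycle, 2 fell and none rose (4 without MFN2-R94Q replicate 1, and 1 without MFN2-R94Q:MFN1 replicate 2 or 4). Cdkn1a, the cell cycle inhibitor p21, was at 11.1, 91.8 and 18.8 RPKM against 8.44, 7.04, 7.66, 7.31 and 8.51 RPKM (0.302-fold, not past the threshold without MFN2-R94Q:MFN1 replicate 2 or 4; 0.554-fold without MFN2-R94Q replicate 2), with nTg at 11.8 ± 1.0 RPKM (SD, n = 3). Sesn1, a stress response gene, fell to 0.760-fold (0.848-fold without replicate 2). Rbm3, an RNA binding protein induced by cold, fell from 39.3, 45.0 and 36.4 RPKM to 26.4, 29.1, 29.6, 29.1 and 27.3 RPKM (0.709-fold, limma adjusted p = 0.000831), near the 24.1 RPKM of nTg.

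Not every fall was led by MFN2-R94Q replicate 2. Vps35 (chr8:85260385-85299517), the core subunit of the retromer that returns endosomal cargo, was at 50.7, 44.0 and 46.6 RPKM in MFN2-R94Q and 30.6, 31.1, 31.8, 29.5 and 30 RPKM with MFN1 (0.654-fold, SE of log2 0.044, limma adjusted p = 2.41e-05; 0.633-fold without replicate 2). The nTg level of 49.3 ± 1.6 RPKM (SD, n = 3) was close to that of MFN2-R94Q, so the libraries with MFN1 were lower than both.

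**Figure D5:**
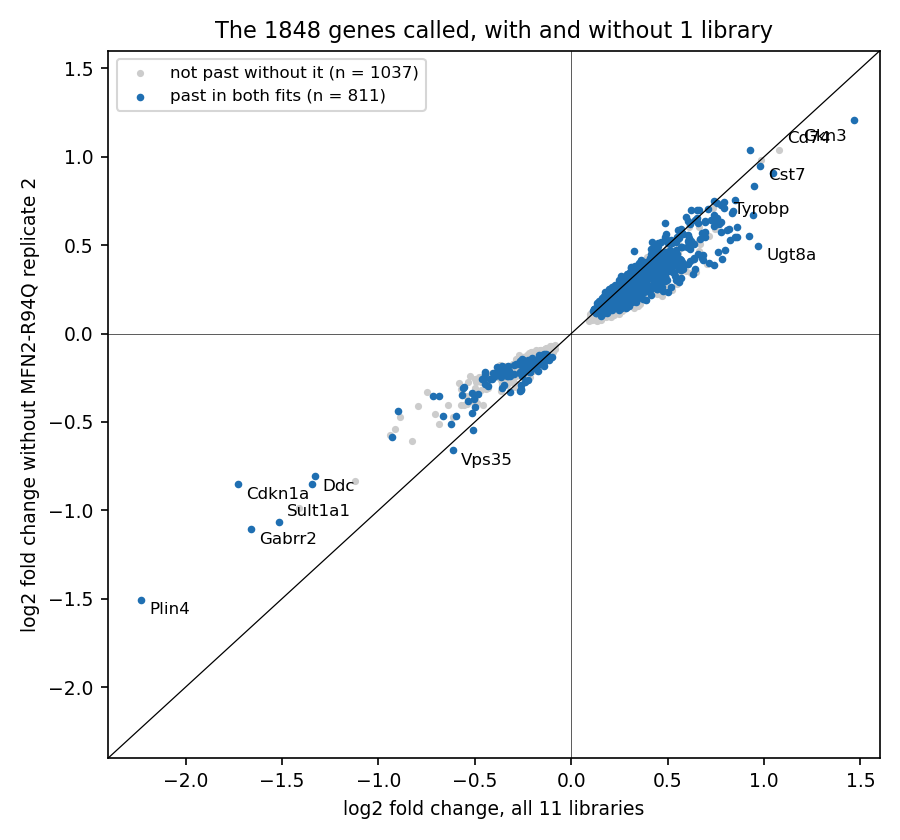
Log2 fold change of the 1848 called genes with all libraries (horizontal axis) and without MFN2-R94Q replicate 2 (vertical axis), 811 past the threshold both ways and 1037 not past it without that library; the line marks equal values. Points far from 0 on the left, such as Plin4 at -2.23 and -1.51, lie nearer 0 on the vertical axis.

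Neuronal markers moved little. Of 18 motor neuron markers 1 rose and none fell (median 0.06), and their summed level was 316 to 327 RPKM in MFN2-R94Q, 323 to 340 RPKM with MFN1 and 337 to 341 RPKM in nTg. Without MFN2-R94Q replicate 1, 3 rose, and without MFN2-R94Q:MFN1 replicate 4, 2 rose. Chat, which makes acetylcholine, was at 1.07-fold (adjusted p = 0.134) and did not pass, as was the case for Slc5a7, the choline transporter, at 1.05-fold. Of 5 neurofilament genes 4 were higher, and 2 without MFN2-R94Q replicate 2 or MFN2-R94Q:MFN1 replicate 2, 4 or 5. Nefh, the heavy chain, rose 1.19-fold to 238 ± 2.2 RPKM (SD, n = 5) from 201 ± 25 RPKM (SD, n = 3), and Nefl, the light chain, was at 1.10-fold (adjusted p = 0.0589). Among genes of axon injury 3 of 20 rose (1 without MFN2-R94Q:MFN1 replicate 2 or 5), and Atf3 (1.12-fold, adjusted p = 0.28) and Sprr1a (1.15-fold, adjusted p = 0.573) did not pass.

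Synaptic and channel genes were called in both directions, with shares lower above the 3.33% over all genes. Those shares were 12.9% for potassium channels, 5.26% for GABA and glycine receptors, 8% for glutamate receptors and 7.41% for synaptic vesicle genes. The shares higher ran from 0% to 10.5%, beside 9.55% over all genes. Potassium channels were higher in 3 and lower in 4 of 31 cases (1 and 1 without MFN2-R94Q replicate 2). GABA and glycine receptors were higher in 2 and lower in 1 of 19 (1 and 1), glutamate receptors higher in 0 and lower in 2 of 25 (0 and 1), and synaptic vesicle genes higher in 1 and lower in 2 of 27 (0 and 1). These counts are small and depended on single libraries. Over the runs that left out 1 library, potassium channels were lower in 1 to 6 cases and higher in 1 to 3. Glutamate receptors were lower in 0 to 2 cases and synaptic vesicle genes in 1 to 3. The number of GABA and glycine receptors that were lower stayed at 1. In the list of sodium, calcium and HCN channels 5 of 28 fell (17.9%) and 1 rose (3.57%). The median was -0.05, and it was -0.01 once trends in length and GC content were removed (2 lower). The falls were 3 without nTg replicate 1, MFN2-R94Q replicate 1 or MFN2-R94Q:MFN1 replicate 4, 2 without MFN2-R94Q replicate 2 or MFN2-R94Q:MFN1 replicate 5, 3 without MFN2-R94Q replicate 3 and 1 without MFN2-R94Q:MFN1 replicate 2. Hcn2, a pacemaker channel, was the member that rose, to 87.6 ± 4.4 RPKM (SD, n = 5) from 66.1 ± 8.2 RPKM (SD, n = 3), or 1.33-fold. Syt1, the calcium sensor of synaptic vesicles, fell to 0.882-fold, from 42.3 ± 1.4 to 37.3 ± 1.2 RPKM. Inhibitory neuron markers fell in 2 of 14 cases (14.3%). Among them was Gad2, which makes GABA (0.903-fold), and it passed in 4 of the 11 runs. The count was 1 without nTg replicate 2, MFN2-R94Q replicate 1 or 2 or MFN2-R94Q:MFN1 replicate 5, and 0 without MFN2-R94Q:MFN1 replicate 2, 3 or 4.

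Genes of mitochondrial dynamics, the process mitofusins act in, were called in both directions. Of 21 fusion and fission genes 3 rose (14.3%, beside 9.55% over all genes) and 1 fell (4.76%, beside 3.33%). Their median was 0.00, and 1 rose without MFN2-R94Q replicate 1 or MFN2-R94Q:MFN1 replicate 5. Opa1, the GTPase that fuses inner membranes, fell to 0.906-fold, from 31.9 ± 1.1 RPKM (SD, n = 3) to 28.9 ± 0.49 RPKM (SD, n = 5). Chchd3, a cristae organiser, rose 1.20-fold, from 27.0 ± 2.1 to 32.5 ± 0.58 RPKM. The fission genes Dnm1l, at 1.0-fold (adjusted p = 0.97), and Fis1, at 1.01-fold, did not pass. Of 13 mitochondrial chaperone and protease genes none passed limma in either direction in this fit (4 did at an unadjusted p under 0.05, 1 higher and 3 lower), while 1 or more passed in runs without MFN2-R94Q replicate 1 or 3 or MFN2-R94Q:MFN1 replicate 5.

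Nuclear genes of the respiratory chain, which passes electrons to oxygen and makes ATP, were higher by small amounts. Of 37 complex I genes 6 rose and none fell (median 0.09), and in 11 the groups did not overlap, all of them higher. Of 41 genes of complexes II to V 7 rose and none fell (median 0.07), among them Uqcrq of complex III (1.16-fold) and Atp5d of the ATP synthase (1.15-fold). Beside nTg, the 2 medians were -0.15 and -0.14 in MFN2-R94Q and -0.06 and -0.07 with MFN1. The counts depended on single libraries and on scaling. Complex I rises were 3 without nTg replicate 1 or 3, 1 without MFN2-R94Q replicate 2 and 0 without MFN2-R94Q:MFN1 replicate 2 or 5, and those of complexes II to V were 11, 2, 4, 11 and 4 without MFN2-R94Q replicates 1 and 2 and MFN2-R94Q:MFN1 replicates 1, 4 and 5. With trends in length and GC content removed, 1 complex I gene was higher and 1 lower, and 4 and 2 of complexes II to V.

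Among 18 genes of mitochondrial transport along axons 4 fell and none rose. The number was 2 without MFN2-R94Q replicate 1 or 3 or MFN2-R94Q:MFN1 replicate 3 or 4, and 1 without MFN2-R94Q:MFN1 replicate 2 or 5. Kif1a, an axonal kinesin, was at 204, 211 and 212 RPKM in MFN2-R94Q and 186, 185, 178, 186 and 187 RPKM with MFN1 (0.882-fold, limma adjusted p = 0.00228). The groups did not overlap, and nTg was at 199 ± 1.8 RPKM (SD, n = 3). Kif5c was at 0.908-fold and passed in 5 of 11 runs.

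Vascular and ventricular lining genes gave short lists. Endothelial markers rose in 8 and fell in 2 of 23 cases. The rises were 1 without MFN2-R94Q replicate 2, 4 without MFN2-R94Q:MFN1 replicate 2 and 5 without replicate 1, 4 or 5 of that group. The falls, Mfsd2a, a lipid transporter (0.680-fold; 0.812-fold without MFN2-R94Q replicate 2), and Rhoj, a small GTPase (0.608-fold; 0.781-fold), were both past the threshold without MFN2-R94Q replicate 2. The number of falls was 4 without MFN2-R94Q replicate 1, 1 without MFN2-R94Q:MFN1 replicate 1, 3 or 5 and 0 without replicate 2 of that group. Kdr, the receptor for vascular growth factor, was 1.43-fold higher but did not pass without MFN2-R94Q replicate 2, while Cldn5, a tight junction gene, was at 1.31-fold (adjusted p = 0.105). Of 17 ependymal genes 5 rose (3 without nTg replicate 1 or 3, MFN2-R94Q replicate 3, or MFN2-R94Q:MFN1 replicate 2, 3 or 5), among them Foxj1, the regulator of motile cilia, at 1.21-fold. Pltp, a phospholipid transfer protein, rose 1.48-fold, from 24.8 ± 2.5 RPKM (SD, n = 3) to 37.0 ± 2.8 RPKM (SD, n = 5). The largest rise of a named gene was Gkn3, found in arterial endothelium, at 0.987, 0.241 and 0.577 RPKM in MFN2-R94Q and 2.59, 1.94, 2.70, 2.00 and 3.03 RPKM with MFN1 (2.76-fold, limma adjusted p = 0.00136; 2.31-fold without MFN2-R94Q replicate 2). Its groups did not overlap, and nTg lay between them at 1.51 ± 0.43 RPKM (SD, n = 3). None of the 31 proteasome genes passed limma in either direction, and 0 had an unadjusted p under 0.05. Without MFN2-R94Q replicate 2, 1 proteasome gene passed.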

How the data were processed

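Poly(A) RNA was sequenced from stranded libraries. Values are the RPKM that the authors deposited, with a column for each library; the build mm10 and the tools TopHat (no version stated) and Partek 7.17.0918 come from the submitters' processing notes. The sources used here do not give the annotation, the use of strand or the treatment of multi-mapping reads, so overlapping, antisense and near-identical genes are uncertain. For 25 rows the symbol was stored as a date, and none of these is named.

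Depth was recovered from 283 short RNA genes (under 160 bases, RefSeq), where 94.9% to 98.9% of values of at most 5 reads lay within 0.02 of a whole number. RPKM values plus 0.5 were log2 transformed and fitted in R 4.3.3 with limma 3.58.1 (moderated with trend; 11 libraries, genotype only, 8 residual degrees of freedom, two-sided, Benjamini-Hochberg over 14347 genes); the step was tested on simulated data. No batch or pairing is labelled. The SD of the log2 difference between libraries of a group was 0.126 to 0.238, so none was taken as a repeat.

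Named genes were Mfn1 and Mfn2, the 15 largest rises and 15 largest falls past the threshold without overlap between groups and with at least 1 RPKM in the higher group, the same among genes that passed in all leave-one-out runs, and up to 6 members with the smallest p of each list. Other list members (P2ry12, Spi1, Sox10, Lgals3, Klk6 and the like) were chosen after their values were seen, for their roles; 1 gene or more that the rule took is not reported here. The members and lists were chosen with earlier results of these data known. Alternatives covered the pseudocount, filter, scaling, design, weights, thresholds and each library left out; 1 that corrects for the length and GC content of transcripts was added after the data were seen.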

Additional observations from a re-analysis of the deposited data

Results flagged for a closer look

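For each named gene, the 5 MFN2-R94Q:MFN1 libraries were checked for a library far from the other 4, with Dixon's test at a critical value of 0.71; 19 of 247 genes met it, and chance gives about 1 in 20. The 3 MFN2-R94Q libraries are too few for it. Replicate 4 was far above the others in Cd74 (11.6 RPKM), H2-Aa (5.14), H2-DMa (5.16), Aif1 (5.53), C1qb (59.8) and C1qc (62.9), genes of antigen presentation and microglia. Replicate 1 was apart in 5 genes, low in Elovl5 (46.8 RPKM), Fdft1 (27.3) and Igfbp7 (12.3) and high in Gabra2 (11.8) and Cacna1b (8.64). Replicate 2 was high in Olig1 (88.1 RPKM), Prph (39.0) and Bhlhe40 (24.6). Replicate 3 was low in Plin2 (7.76 RPKM) and Kif1a (178) and high in Fmod (5.00). Replicate 4 was low in Tef (51.4 RPKM), and replicate 5 was low in B2m (114 RPKM).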

How the results depend on the processing

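The 1848 calls (1370 higher, 478 lower) became 1198 (893 higher, 305 lower) with no filter on low values, which adds genes to the adjustment, 3378 (2248 and 1130) with library weights and 961 (757 and 204) with genotype weights. A threshold of 0.01 left 412 (363 and 49), and a 1.5-fold minimum left 113 (87 and 26). Quantile normalization gave 833 lower and the 2 groups fitted alone gave 287 lower; except for the filter and the thresholds, the cause was not tested. Over the 11 runs that left out 1 library the calls ranged from 880 to 2217, the higher genes from 725 to 1471 and the lower genes from 155 to 746. The pseudocounts, a stricter filter, median centring, the other limma settings and the length and GC corrections kept all 3 counts within 1.5 times. No gene named by the rule reversed under any of these alternatives. No paired analysis was possible because the labels give no replicate numbers that groups share. Precision is limited by the 3 MFN2-R94Q libraries, 1 of which stands apart.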

Other observations

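Circadian clock genes differed in both directions. Of 20 tested, 3 were higher and 4 lower with MFN1 (1 lower without MFN2-R94Q replicate 2, and 2 lower without MFN2-R94Q:MFN1 replicate 2, 4 or 5). Dbp, an output gene of the clock, was at 19.7, 13.3 and 20.6 RPKM in MFN2-R94Q and 23.6, 26.2, 26.6, 27.7 and 26.6 RPKM with MFN1 (1.47-fold; 1.29-fold without MFN2-R94Q replicate 2), beside 15.2 ± 0.64 RPKM in nTg (SD, n = 3). Arntl, the core activator, was at 0.835-fold and passed in all runs but those without MFN2-R94Q replicate 1 or 3.

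Of 13 genes of the insulin-like growth factor system, 4 binding proteins rose and the receptor gene Insr fell (0.865-fold). Igfbp4 was at 4.34 ± 1.2 RPKM in MFN2-R94Q (SD, n = 3), 8.05 ± 0.93 with MFN1 (SD, n = 5) and 9.07 ± 2.0 in nTg (1.79-fold for MFN1; 1.62-fold without MFN2-R94Q replicate 2). Igfbp2 rose 1.59-fold (1.45-fold without that library), Igfbp5 1.42-fold (1.31-fold) and Igfbp7 1.17-fold. The counts of 4 and 1 were the same without MFN2-R94Q replicate 2. Of 13 genes of iron handling 5 were higher and 3 lower, among them Ftl1, the ferritin light chain, at 1.20-fold, and Heph, a copper ferroxidase, at 0.780-fold; without MFN2-R94Q replicate 2, 3 were higher and 1 lower.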
